A study of Mus musculus with 2 samples.

Results

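The 9 genes described here encode serpins (serine protease inhibitors and their non-inhibitory relatives) found in stromal cells of mouse bone marrow: Serpine2, Serping1, Serpinh1, Serpinf1, Serpina3n, Serpina12, Serpina3g, Serpina3c and Serpina3f. They are 9 of the 62 genes named Serpin among the 32285 genes counted. They were chosen by their measured levels in the marrow stromal cells of these same data, so the levels and the differences between cell classes are a description and carry no test. Level is given as CPM, the UMIs (counted molecules) of a gene per 1000000 UMIs of all genes, summed over the cells of a class.

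The data were droplet single-cell RNA-seq of Lin-CD45- cells sorted from femur and tibia of male INK-ATTAC mice aged 24 months and left untreated. INK-ATTAC mice carry a transgene in which a Cdkn2a promoter fragment drives a caspase that is activated by a drug, and no drug was given here. Cells of 3 mice were digested from bone and marrow, depleted of lineage-positive cells with magnetic beads, sorted for the absence of CD45 and pooled into 1 sample. The 2 deposited replicates shared 10928 of the 11056 barcodes found in at least 1 of them, and were read as lanes of the same cells: there is 1 biological sample, no comparison group and no replicate error, and all intervals below are 95% intervals for counting error only.

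Lane 1 held 116827845 UMIs and lane 2 held 120556381. Gene counts of a barcode differed between lanes by less than sampling noise (squared difference over sum 0.559), and the lanes were added together. With a minimum of 200 genes and at most 20% of UMIs from mitochondrial genes, 9573 barcodes were kept. The LEPR stromal cells (leptin receptor-positive, CXCL12-abundant stromal cells of the marrow) were the 1877 barcodes with at least 1 Lepr UMI and at least 5000 CPM of Cxcl12, with a median of 5188 UMIs over both lanes. All 12 markers of these cells were higher there than in any other class, of which Lepr and Cxcl12 were fixed by the gate, and among the other 10 were Adipoq at 1149 CPM, Kitl at 1779 CPM and Ebf3 at 1039 CPM. The other classes were set by the number of markers with a UMI and are called by those markers: 92 fibroblast-like barcodes (14 of 16 markers highest there, median 9608.5 UMIs), 58 endothelial-like (12 of 12, median 3614), 95 megakaryocyte-like (11 of 11, median 8848) and 6559 erythroid-like (16 of 16, median 28455). The marker Pdgfra was higher in the LEPR stromal cells than in the fibroblast-like class, and Ly6a was highest in the endothelial-like class. Of 8 osteoblast markers, 6 were highest in the fibroblast-like class and 2 in LEPR stromal cells. They summed to 8003 CPM in the first and 4996 CPM in the second. Of the LEPR stromal barcodes, 101 also reached the erythroid marker count, 9 the fibroblast count, 9 the plasma cell count, 3 the megakaryocyte count and 2 the endothelial count. The 16 erythroid markers summed to 19499 CPM in endothelial-like, 14099 CPM in megakaryocyte-like and 8074 CPM in fibroblast-like barcodes. They summed to 34942 CPM in erythroid-like and 2676 CPM in LEPR stromal barcodes. The part of this RNA in the levels below was not tested beyond leaving globin out of the totals.

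Serpins fold into a strained structure with an exposed reactive centre loop. An inhibitory serpin offers this loop to a protease as bait, is cut, and traps the protease in a covalent complex that is cleared by receptors such as LRP1. Some members have lost this activity: HSP47 (Serpinh1) is a chaperone of collagen in the endoplasmic reticulum, and PEDF (Serpinf1) is a secreted factor that acts on blood vessels and bone matrix through cell surface receptors. In the marrow, LEPR stromal cells line the sinusoids and supply CXCL12 and stem cell factor to blood-forming cells.

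In the GENCODE M21 annotation of GRCm38 (mm10), 4 members lie on chromosomes that hold no other member. All 4 are on the minus strand: Serpine2 (ENSMUSG00000026249) at chr1:79794197-79861180, Serping1 (ENSMUSG00000023224) at chr2:84765387-84775444, Serpinh1 (ENSMUSG00000070436) at chr7:99345376-99353239 and Serpinf1 (ENSMUSG00000000753) at chr11:75409769-75422701. The other 5 are on chromosome 12. The stretch from the end of Serpina12 at 104028769 to the end of Serpina3n at 104414329 spans 385.6 kb. It holds 12 protein-coding serpin genes and is called the cluster here. Its limits are those of the outermost members, and serpin genes of the chromosome outside it were not counted. Serpina12 (ENSMUSG00000041567, 104028769 to 104044443) and Serpina3c (ENSMUSG00000066361, 104146382 to 104153870) are on the minus strand. Serpina3f (ENSMUSG00000066363, 104214544 to 104221129), Serpina3g (ENSMUSG00000041481, 104236245 to 104241939) and Serpina3n (ENSMUSG00000021091, 104406729 to 104414329) are on the plus strand.

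The 4 Serpina3 members are near copies of each other: their coding sequences were 81.9% to 87.0% identical in pairs, against 54.4% to 54.8% between any of them and Serpina12. They differed more in the reactive centre loop than in the rest. In the aligned coding sequences, 37.9% of 66 loop positions were the same in all 4 genes, against 77.5% of the 573 positions aligned in all 4 outside it. The coding bases from the hinge of the loop to the conserved stretch behind it, taken from the GENCODE M21 transcripts, are shown so that this can be seen, with capitals for every base that is not shared by all 4 genes.
Serpina3c: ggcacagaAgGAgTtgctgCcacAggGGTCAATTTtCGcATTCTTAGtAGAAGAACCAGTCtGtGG
Serpina3f: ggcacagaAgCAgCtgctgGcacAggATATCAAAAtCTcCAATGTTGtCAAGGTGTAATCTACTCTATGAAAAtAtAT
Serpina3g: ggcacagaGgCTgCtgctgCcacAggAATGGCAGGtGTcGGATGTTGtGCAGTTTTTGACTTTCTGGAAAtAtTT
Serpina3n: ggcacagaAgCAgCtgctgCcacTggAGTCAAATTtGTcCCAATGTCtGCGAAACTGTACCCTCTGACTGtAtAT
The first bases, which code for the hinge, are nearly the same in all 4, and the capitals take over toward the part that meets the protease. Such copies could share reads in a 3′ assay. Of the 50-base words in the last 500 bases of their transcripts, none of those of Serpina3c, Serpina3n or Serpina12 occurred in another gene, 2.84% of those of Serpina3f did, mostly in Serpina3g (2.41%), and 19.5% of those of Serpina3g did, mostly in Serpina3h. With 90-base words these shares were 0% for Serpina3f and 6.51% for Serpina3g, so the Serpina3g count is the least certain of the 9.

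Serpine2 (protease nexin-1, a secreted inhibitor of thrombin, urokinase and plasmin) was by far the most abundant serpin of the LEPR stromal cells. It stood at 4793 CPM in lane 1 and 4787 CPM in lane 2, 4790 CPM in both (4732 to 4849), and 98.7% of the cells had a UMI. In a 3′ assay a transcript gives 1 tag whatever its length, and on this scale Serpine2 was 10th among the 17736 genes detected in these cells. Its level was 701 CPM (634 to 774) in fibroblast-like cells, 264 CPM (227 to 306) in megakaryocyte-like cells, 16.3 CPM (15.5 to 17.1) in erythroid-like cells and 13.3 CPM (2.75 to 38.9) in endothelial-like cells. The LEPR stromal level was thus 6.83-fold higher (6.18 to 7.56) than the fibroblast-like one and 18.2-fold higher (15.7 to 21.2) than the megakaryocyte-like one.

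Serping1 (C1 inhibitor, which blocks the complement proteases C1r and C1s and the contact-system proteases) followed at 1765 CPM (1730 to 1801), with 1751 CPM in lane 1 and 1779 CPM in lane 2. It was 36th in level and had a UMI in 90.2% of LEPR stromal cells. In fibroblast-like cells it was at 1095 CPM (1010 to 1184), and the LEPR stromal level was 1.61-fold higher (1.49 to 1.75). It was low in the blood lineages, at 21.4 CPM in megakaryocyte-like cells, where 3 of 95 cells held all 29 UMIs, and at 5.08 CPM in erythroid-like cells.

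Of the pair without protease targets, the collagen chaperone Serpinh1 was at 611 CPM in lane 1 and 632 CPM in lane 2 of the LEPR stromal cells, 622 CPM (601 to 643) in both, with a UMI in 80.5% of them. Its level was 367 CPM (319 to 421) in fibroblast-like and 91.0 CPM (55.9 to 140) in endothelial-like cells. It was the only member above 20 CPM in the endothelial-like class, where 19 of 58 cells had a UMI. Serpinf1 went the other way from the rest. It was at 85.8 CPM (78.1 to 94.0) in LEPR stromal cells, with a UMI in 524 of 1877, and at 630.1 CPM (566 to 699) in fibroblast-like cells, with one in 81 of 92. In the separate lanes it stood at 85.5 and 86.0 CPM in the first class and at 625 and 635 CPM in the second. The log2 ratio of LEPR stromal over fibroblast-like cells was -2.88 (-3.08 to -2.67), or 7.35-fold higher in the fibroblast-like class.

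The 5 members of the chromosome 12 cluster were at 83.4 to 241 CPM in LEPR stromal cells. Serpina3n (an acute-phase relative of human alpha-1-antichymotrypsin) was at 241 CPM (228 to 255), Serpina12 (vaspin, a protein secreted by fat cells that inhibits kallikrein 7) at 211 CPM (199 to 224), Serpina3g (an inhibitor that stays inside the cell and acts on cysteine cathepsins) at 193 CPM (182 to 206), Serpina3c at 111 CPM (102 to 120.0) and Serpina3f at 83.4 CPM (75.8 to 91.4). The lanes gave 239.8 and 243 CPM for Serpina3n, 212 and 211 CPM for Serpina12, 192 and 195 CPM for Serpina3g, 109.6 and 112 CPM for Serpina3c, and 81.4 and 85.3 CPM for Serpina3f. The Serpina12 and Serpina3n intervals do not overlap, nor do those of Serpina3g and Serpina3c, while those of Serpina12 and Serpina3g do, as do those of Serpina3f and Serpinf1. In the same order, 47.3%, 35.7%, 41.1%, 32.9% and 20.7% of the cells had a UMI.

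**Figure D1:**
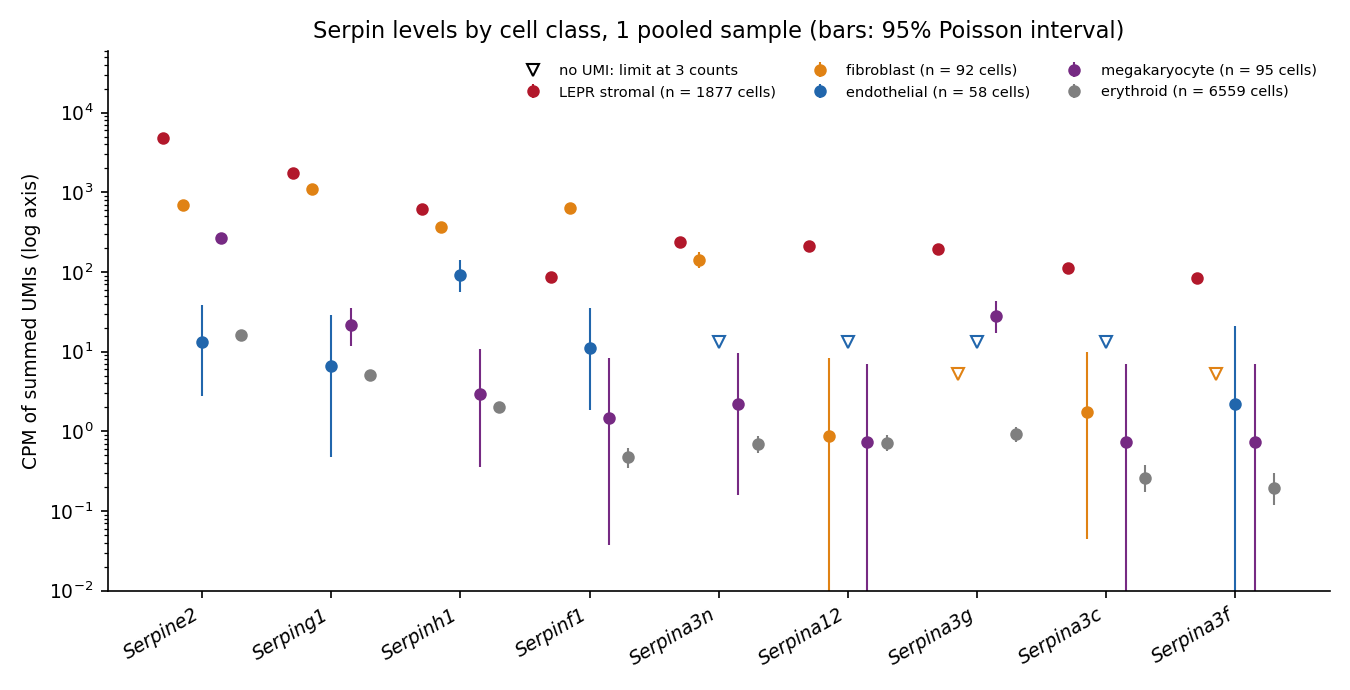
CPM of each serpin (log axis) in the 5 cell classes, lanes summed; points are levels, bars the exact 95% Poisson interval (cut off at the axis), and open triangles mark classes with no UMI at the level that 3 counts would give. LEPR stromal cells are highest for 8 of the 9 genes, and Serpinf1 is highest in fibroblast-like cells at 630.1 CPM.

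Of these 5, Serpina3n was also at 143 CPM (113 to 177) in fibroblast-like cells, with a UMI in 26 of 92. That class held no UMI of Serpina3g or Serpina3f, 1 of Serpina12 and 2 of Serpina3c. Against the limit of 3 counts, the LEPR stromal level of Serpina3g was at least 36.6-fold higher and that of Serpina3f at least 15.8-fold higher. On the log2 scale the ratio was 7.91 (4.68 to 17.90) for Serpina12 and 5.97 (3.49 to 11.28) for Serpina3c, wide intervals that come from these few counts. The endothelial-like class held no UMI of Serpina3n, Serpina12, Serpina3g or Serpina3c, and its depth allows up to 13.3 CPM for each.

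Counted at a ratio of 2 or more, 5 of the 9 members were higher in LEPR stromal than in fibroblast-like cells, where 22.9% of the 11258 genes tested passed the same ratio. Those that did not pass were Serping1, Serpinh1 and Serpina3n, whose log2 ratios were 0.69, 0.76 and 0.76, and Serpinf1. All 9 were at least 2-fold higher than in endothelial-like cells (26.8% of 11114 genes), megakaryocyte-like cells (43.8% of 11265 genes) and erythroid-like cells (46.4% of 13584 genes). These counts follow from the choice of members and nothing is read from them. Summed, the members made up 8103 CPM of the LEPR stromal cells, 2939 CPM of the fibroblast-like cells, 322 CPM of the megakaryocyte-like, 124 CPM of the endothelial-like and 26.6 CPM of the erythroid-like cells. Serpine2 gave 59.1% of the members' UMIs in LEPR stromal cells and 23.9% in fibroblast-like cells.

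In the erythroid-like barcodes the members' low levels moved with the gate gene. Per 1000 Cxcl12 UMIs, LEPR stromal cells held 216 UMIs of Serpine2, 79.5 of Serping1 and 28.0 of Serpinh1, and erythroid-like barcodes held 255, 79.5 and 31.6. For the 9 members the erythroid-like value divided by the LEPR stromal value ran from 0.805 (Serpina3f) to 1.91 (Serpinf1). Free RNA of stromal cells in these droplets, or stromal cells caught with them, was not tested as a source. In the 3392 of 6559 erythroid-like barcodes without a UMI of Lepr or Cxcl12, Serpine2 was at 4.00 CPM and no other member was above 1.21 CPM.

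In megakaryocyte-like cells Serpine2 and Serpina3g stood out against the gate gene. The 12 LEPR stromal markers summed to 267 CPM in them, against 36262 CPM in LEPR stromal cells. Per 1000 Cxcl12 UMIs there were 1692 UMIs of Serpine2 and 180 of Serpina3g in that class, against 216 and 8.72 in LEPR stromal cells. Serping1 (137 against 79.5), Serpinf1 (9.48 against 3.87), Serpina3n (14.2 against 10.9) and Serpina3f (4.74 against 3.76) were also above the LEPR stromal value. They rest on 29, 2, 3 and 1 UMIs, those of Serping1 in 3 cells. Serpine2 had a UMI in 67 of 95 cells and Serpina3g in 13 of 95. In the 63 cells of the class without any UMI of Lepr or Cxcl12, Serpine2 was still at 244 CPM (194 to 302), in 41 cells, and Serpina3g at 29.4 CPM (14.1 to 54.0), in 7 cells. The other 7 members had no UMI in these 63 cells. With every cell thinned to 2000 UMIs, 48.8% of megakaryocyte-like cells had a UMI of Serpine2 against 2.06% of erythroid-like cells, and 7.50% against 0.127% had one of Serpina3g.

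The same restriction left 20 of the 92 fibroblast-like cells. In these, Serpinf1 was at 455 CPM (342 to 593) in 15 cells, Serping1 at 585 CPM (456 to 740.0) in 14, Serpinh1 at 400.0 CPM (294 to 531) in 17 and Serpine2 at 467 CPM (353 to 608) in 13, while Serpina3n was at 37.9 CPM (11.4 to 92.3) in 3. The remaining cluster members, Serpina12, Serpina3g, Serpina3c and Serpina3f, had no UMI there.

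Along the chromosome 12 cluster, Serpina3c, Serpina3f and Serpina3g follow each other, while genes at or near 0 separate them from Serpina12 and Serpina3n. The other 7 coding serpin genes of the cluster were Serpina5, Serpina3a, Serpina3b, Serpina3i, Serpina3j, Serpina3k and Serpina3m, and only 3 of them had a UMI in the LEPR stromal cells: Serpina3m at 6.33 CPM, Serpina3b at 0.372 CPM and Serpina3i at 0.279 CPM. Counted from the start of Serpina12, that of Serpina3b lies at 83.6 kb and that of Serpina3c at 109 kb. In megakaryocyte-like cells Serpina3b was at 54.7 CPM, with a UMI in 28 of 95, and Serpina3c had 1 UMI. Serpina3g, found in LEPR stromal and megakaryocyte-like cells, starts at 192 kb and Serpina3f, which had 1 UMI in megakaryocyte-like cells, at 170.1 kb.

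**Figure D2:**
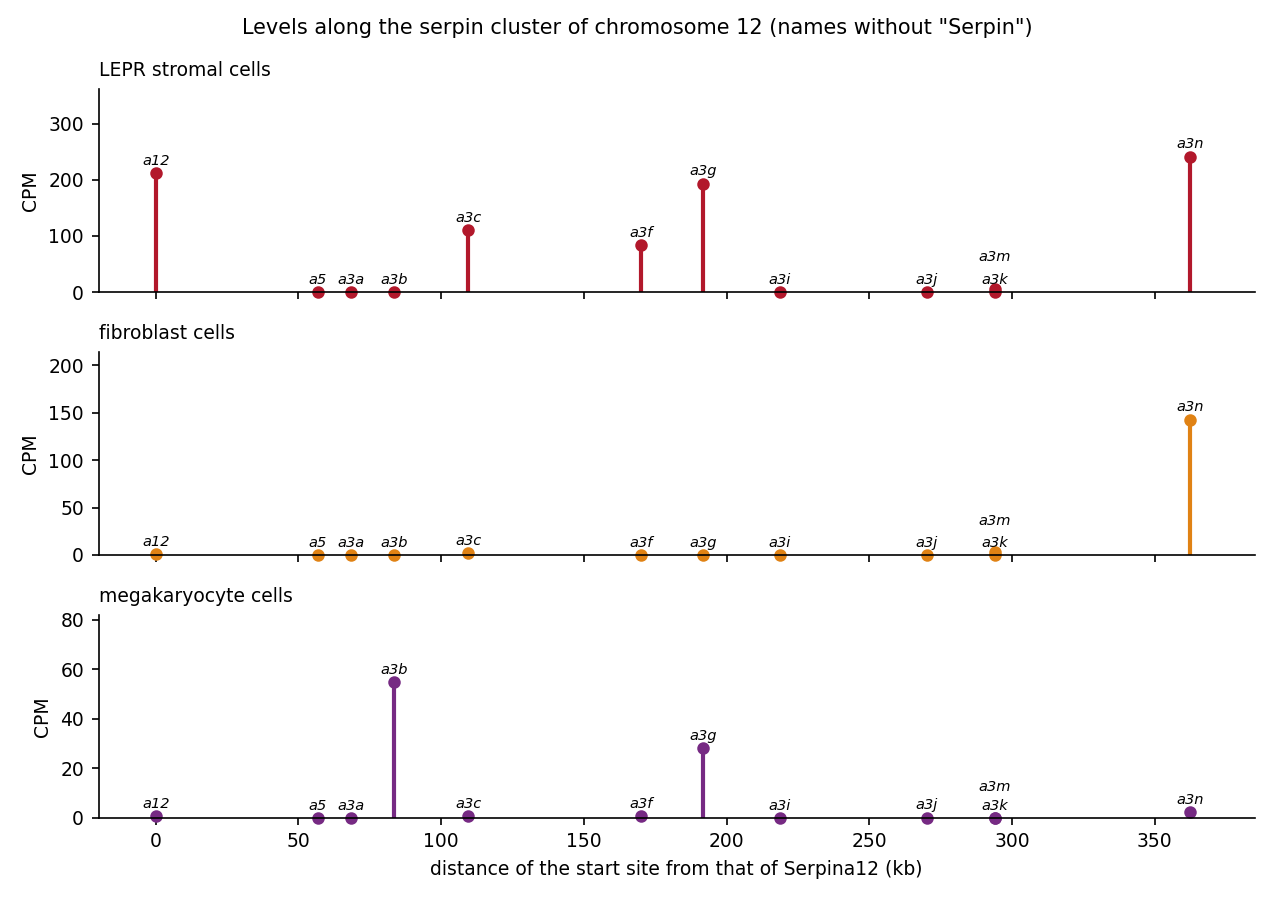
CPM (linear axes) of the 12 coding serpin genes of the chromosome 12 cluster in LEPR stromal, fibroblast-like and megakaryocyte-like cells against the distance in kb of each start site from that of Serpina12; each stem is 1 gene. The LEPR stromal panel shows 5 high genes, the fibroblast-like panel only Serpina3n at 143 CPM, and the megakaryocyte-like panel Serpina3b at 54.7 CPM and Serpina3g at 28.1 CPM.

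The share of cells with a UMI depended on depth. Thinned to 2000 UMIs per cell, which 1751 of the 1877 LEPR stromal cells allowed, 97.9% had a UMI of Serpine2, 85.4% of Serping1, 62.0% of Serpinh1, 27.6% of Serpina3n, 24.7% of Serpina3g, 22.7% of Serpina12, 17.6% of Serpina3c, 13.5% of Serpinf1 and 11.1% of Serpina3f. At this depth a cell without a UMI of one of the 6 lower genes cannot be called negative for it. In the 6314 erythroid-like cells deep enough, the shares ran from 0.0475% for Serpina3f to 2.06% for Serpine2. The order of the fibroblast-like shares was different: 72.8% for Serping1, 60.9% for Serpinf1, 57.6% for Serpine2, 43.5% for Serpinh1 and 15.2% for Serpina3n.

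**Figure D3:**
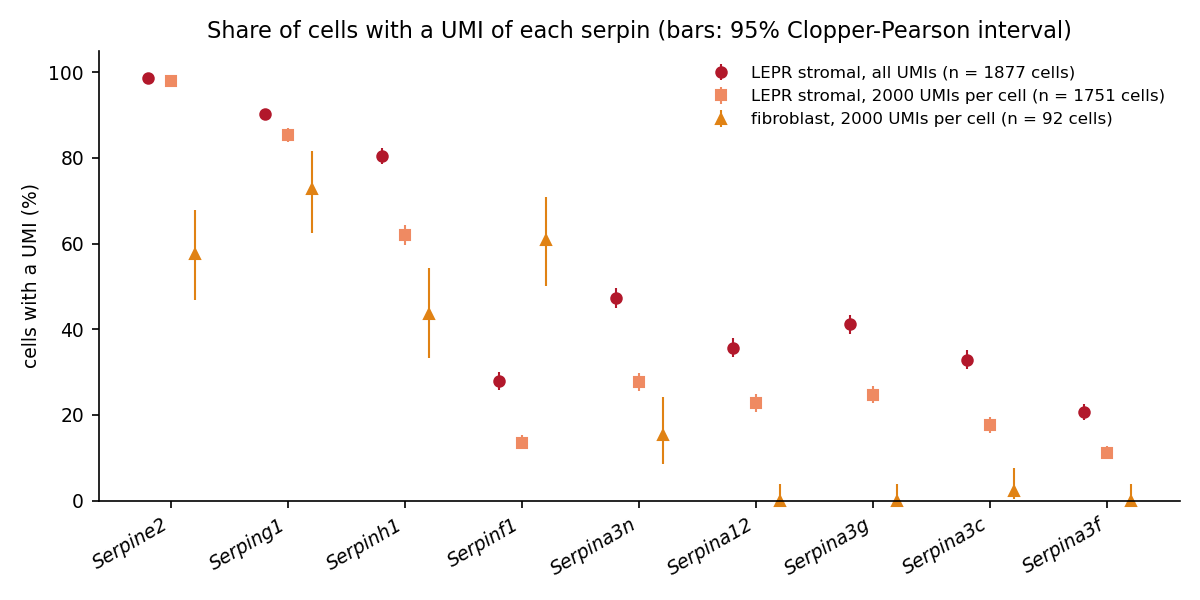
Percent of cells with a UMI of each serpin for LEPR stromal cells at full depth (circles) and thinned to 2000 UMIs (squares) and for thinned fibroblast-like cells (triangles), with exact 95% Clopper-Pearson intervals. Serpine2 stays at 97.9% after thinning while Serpina3f falls to 11.1%, and Serpinf1 is the gene whose fibroblast-like share lies above both LEPR stromal shares.

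How far the UMIs of a gene are concentrated in few LEPR stromal cells depends on how many UMIs it has, and no expected value was computed. The 188 cells with the most UMIs of a gene held 28.5% of the Serpine2 UMIs and 31.1% of the Serping1 UMIs, and of the genes found in fewer cells they held 75.7% of the Serpina3f, 63.5% of the Serpina12 and 57.4% of the Serpinf1 UMIs. Serpina3f and Serpinf1 are at levels whose intervals overlap, with a UMI in 388 and 524 cells. The median cell had 4142 CPM of Serpine2 and 1482 CPM of Serping1. Single cells reached 39 UMIs of Serpina3g, 37 of Serpina12 and 26 of Serpina3f, while the median cell that had any UMI of these genes had 2. With the cells cut into 4 equal sets by depth, Serpine2 was lower in the deepest set (median 8958.5 UMIs), at 4197 CPM against 5239 CPM in the shallowest (median 2614 UMIs), and the other 8 were higher there, for example Serping1 at 1931 against 1242 CPM and Serpina12 at 258 against 134 CPM.

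Levels on both sides of the Cxcl12 limit are given for 4 members. The 76 cells just inside it, with 5000 to 7500 CPM of Cxcl12, had 2485 CPM of Serpine2, 669.7 CPM of Serping1, 44.2 CPM of Serpina12 and 108 CPM of Serpina3f, at a median of 3208 UMIs. The 90 barcodes just outside, with 2500 to 5000 CPM and a Lepr UMI, had 765 CPM of Serpine2, 313 CPM of Serping1, 42.2 CPM of Serpina12 and 5.62 CPM of Serpina3f, at a median of 5080 UMIs. The share of cells with a UMI went from 88.2% inside to 93.3% outside for Serpine2, from 53.9% to 57.8% for Serping1, from 9.21% to 21.1% for Serpina12 and from 19.7% to 5.56% for Serpina3f, and the part of depth was not tested. The 124 barcodes that passed the Cxcl12 limit without a Lepr UMI had 3720.0 CPM of Serpine2 and 1083 CPM of Serping1, at a median of 2363.5 UMIs.

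Detection of several members in the same cell was compared at the fixed depth of 2000 UMIs with the product of their shares. Of 36 member pairs, 1 was found together at least 1.5 times as often as by independence, the median ratio was 1.06 and 3 pairs were below 1. For pairs of a member and any of 5403 other genes, 0.539% reached that ratio. The share differed by member, and for Serpina3f, found in the fewest cells, it was 2.85%. The pair was the neighbours Serpina3g and Serpina3f, on the same strand: 80 cells held both against 48.0 by independence, a ratio of 1.67 (1.32 to 2.08). Over 20 other random draws of the same depth this ratio reached 1.5 in 18 and at most 1.84. With lane 1 alone it just reached the limit, and with lane 2 alone it was 1.49, short of it. Serpina3c with Serpina3f (47 cells against 34.1, ratio 1.38) reached 1.5 in 8 of the 20 draws, and Serpina3n with Serpina3f (78 against 53.6) in 0 of 20, where its ratio was at most 1.44.

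The 10 pairs among the 5 cluster members had ratios from 1.05 to 1.67, where the median over all 5403 genes was 1.02 to 1.03 for these members. In the other draws Serpina3n with Serpina3g went down to 0.947, Serpina3n with Serpina12 to 0.954 and Serpina12 with Serpina3c to 0.963. Serpine2, which nearly every cell had, was within 0.989 and 1.02 with every other member. By cell, 632 of the 1751 thinned cells had none of the 5 cluster members against 540.0 by independence, 610 had 1 against 725, 356 had 2 against 378, 120 had 3 against 95.4, 30 had 4 against 11.5 and 3 had all 5 against 0.530. Both ends of this count were above independence. At full depth, 19.8% of the 1877 cells had none and 2.72% had all 5.

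**Figure D4:**
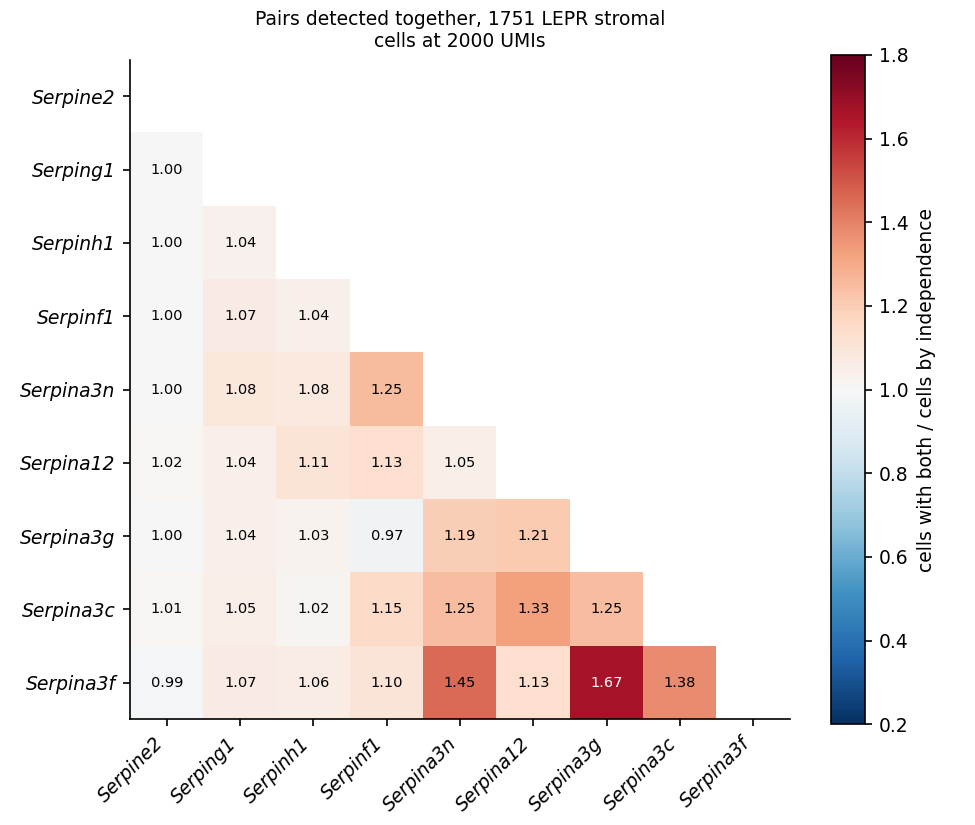
Ratio of the number of thinned LEPR stromal cells with both serpins to the number by independence, for all 36 pairs (color scale centred at 1). The darkest cell is Serpina3g with Serpina3f at 1.67, and the Serpine2 column stays at 0.989 to 1.02.

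The LEPR stromal cells are known to hold states that lean toward fat or bone. Cells at 2000 UMIs were therefore ranked by their UMIs of a gene list, and the 437 highest (the upper set) were compared with the 437 lowest (the lower set). These sets are ranges of a score and not cell types, and ties at their limits were broken at random. For the interferon list the lower set ended at 1 UMI (409 cells at that value) and the upper began at 3 (220 cells). For the immediate-early list the lower set was a random draw from the 641 cells with 0 UMIs of the list. The adipogenic list (12 genes) summed to 9294 CPM in LEPR stromal cells. Its most abundant genes were Apoe (3078 CPM), Lpl (2657 CPM), the gate gene Lepr (1568 CPM) and Adipoq (1149 CPM). The fat cell regulators Cebpa (163 CPM) and Pparg (64.2 CPM) weighed little in the ranking. For this list, 8 of 9 members were at least 1.5-fold higher in the upper set, against 19.3% of 5479 genes. The members' median log2 ratio was 1.00 and that of all genes 0.08. As the members were chosen by their levels in these cells, all genes are an unlike background for this list and those below. Nothing is read from these counts. Serpina12 had the largest ratio, with 302 CPM in the upper and 102 CPM in the lower set, a log2 ratio of 1.57 (1.07 to 2.09). With 1 lane alone, at 1000 UMIs per cell, this ratio was 2.24 in lane 1 and 0.96 in lane 2. Serping1 stood at 2299 against 1071 CPM (log2 1.10, 0.94 to 1.26). Serpine2 was the exception, at 3910 against 5167 CPM (log2 -0.40, -0.49 to -0.31).

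Other values moved with this ranking. In the upper adipogenic set, mitochondrial transcripts were at 33521 CPM against 50926 CPM in the lower, the nuclear RNA Malat1 at 58621 against 101376 CPM and Gm42418, which overlaps ribosomal RNA, at 78465 against 123858 CPM, globin transcripts at 1365 against 2260 CPM, and the median depth before thinning was 6509 against 4499 UMIs. Their part in the result was not tested beyond leaving the mitochondrial transcripts, Malat1 and Gm42418 out of the totals, with cells thinned to 1000 UMIs, which changes depth as well. The log2 ratio was then 1.16 for Serpina12, 0.76 for Serping1 and -0.44 for Serpine2, and 6 of 9 members passed 1.5-fold.

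For the osteogenic list (12 genes, among them Ibsp, Spp1, Alpl and Runx2), 2 of 9 members passed 1.5-fold, against 10.8% of 5470 genes. Serpine2 was at 6081 CPM in the upper and 3489.7 CPM in the lower set (log2 0.80, 0.71 to 0.89), and Serping1 at 2137 and 1240.3 CPM (log2 0.79, 0.63 to 0.94). Serpinh1, the collagen chaperone, was at 563 and 543 CPM (log2 0.05, -0.21 to 0.31). Without Ibsp and Spp1, the most abundant genes of the list, the log2 ratio of Serpine2 was 0.39, that of Serping1 turned to -0.15, that of Serpina3n from 0.49 (0.07 to 0.92) to -0.13 and that of Serpina12 from 0.44 to -0.13, and 0 members passed. Mitochondrial transcripts were at 34975 CPM in the upper and 47704 CPM in the lower osteogenic set, Malat1 at 65596 and 92095 CPM, Gm42418 at 82538 and 115365 CPM, globin at 1248 and 2142 CPM and the median depth at 5908 and 4928 UMIs. Their part was not tested beyond the same removal at 1000 UMIs per cell, with Serpine2 at 0.72, Serping1 at 0.55, below 1.5-fold, and Serpina12 turned to -0.19. Serpine2 was thus lower toward the adipogenic and higher toward the osteogenic end.

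For the interferon list (20 genes, among them Ifit3, Irf7 and Iigp1), 1 member passed 1.5-fold, against 6.40% of 5487 genes: Serpina3f was at 125 CPM in the upper and 62.9 CPM in the lower set (log2 0.99, 0.30 to 1.70, and 0.90 to 1.66 over the 20 draws). Serpina3g was at 235 and 174 CPM (log2 0.43, -0.01 to 0.88), below the 0.47 to 0.96 of the other draws, and Serpina12 at 261 and 176 CPM (log2 0.57, 0.14 to 1.00). Serpine2 was at 4424 and 5270.0 CPM (log2 -0.25). As a median over the 20 draws, 3 members passed 1.5-fold. The median depth before thinning was 5750 UMIs in the upper and 4995 in the lower interferon set, with mitochondrial transcripts at 37518 and 46252 CPM, and their part in the result was not tested beyond the same removal at 1000 UMIs per cell, with Serpina3f at 0.95. For the immediate-early list (12 genes, among them Fos, Jun and Egr1, which rise during cell isolation), 1 member passed, against 8.41% of 5467 genes. This was Serpina3f (log2 0.74, -0.00 to 1.51), whose value ran from 0.10 to 1.08 over the draws, with 0 members passing as their median. Mitochondrial transcripts were at 35359 CPM in the upper and 45050 CPM in the lower immediate-early set, Malat1 at 88606 and 75151 CPM and Gm42418 at 83183 and 106974 CPM. With these transcripts left out and cells thinned to 1000 UMIs, Serpina3f was at 0.43 and 0 members passed. Serpina12 was lower in the upper immediate-early set, at 168 against 231 CPM (log2 -0.46, -0.91 to -0.01), and lower still, at -1.12 to -0.53, over the other draws.

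**Figure D5:**
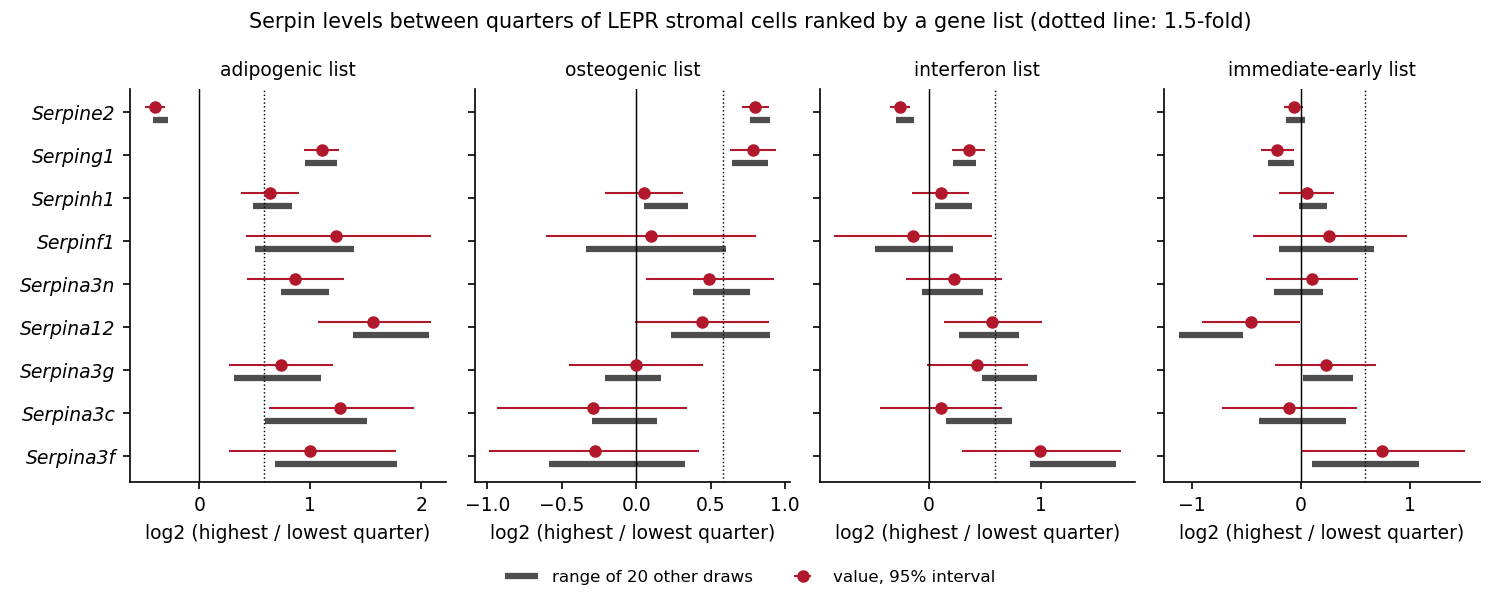
Log2 ratio of each serpin between the 437 highest and the 437 lowest of 1751 LEPR stromal cells ranked by 4 gene lists, with red points and exact 95% counting intervals, grey bars the range over 20 other thinning draws, the dotted line 1.5-fold. Serpine2 lies left of 0 at -0.40 for the adipogenic list and right at 0.80 for the osteogenic list, and for the interferon list the Serpina3f point lies past the dotted line at 0.99.

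The promoters of the Serpina3 members are shown because Serpina3f with Serpina3g had the highest ratio of joint detection to independence. Of the 9 members, 8 matched the RefSeq promoter table (GRCm38.p6, windows around the start site), with 9 promoters. Serpine2 and Serpina3n were among the matched promoters without any of 5 motifs searched on both strands, as was Serpina3c. GAAANNGAA, the core of the interferon-stimulated response element, occurred once in Serpina3f, in the overlap of its 2 promoter windows, and in no other member's, and in 8.56% of all 32851 promoters. TTCNNNGAA occurred in those of Serpina3f and Serpina3g and in 8.30% of all. The stretch of the Serpina3f promoter with these matches is shown with the bases aligned to it in the other Serpina3 promoters, with capitals for the bases in any of the 5 motifs. It lies at chr12:104214389-104214458 (plus strand), and the others at chr12:104236080-104236158 (Serpina3g, plus), chr12:104406555-104406629 (Serpina3n, plus) and chr12:104153948-104154022 (Serpina3c, minus).
Serpina3f: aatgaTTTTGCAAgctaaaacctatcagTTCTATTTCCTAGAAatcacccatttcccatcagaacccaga
Serpina3g: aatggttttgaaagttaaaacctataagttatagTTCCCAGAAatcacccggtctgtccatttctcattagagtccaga
Serpina3n: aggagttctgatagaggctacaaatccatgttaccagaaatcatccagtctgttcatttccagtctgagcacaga
Serpina3c: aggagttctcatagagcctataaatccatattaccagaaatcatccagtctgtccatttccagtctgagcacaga
In Serpina3f the GAAANNGAA match, read on the other strand, overlaps the TTCNNNGAA match. Over this stretch Serpina3g shares 84.3% of the aligned bases with Serpina3f, Serpina3c 65.2% and Serpina3n 62.1%. TTGCNNAA, the C/EBP site, was found in Serpina12 and Serpina3f and in 10.8% of all promoters. CCCNNGGG, the EBF core, was found in Serpina12 and Serpinh1 and in 13.7% of all. TGTGGT, the RUNX site, was found in Serpina12, Serpina3f, Serpina3g and Serpinf1 and in 16.8% of all. A match is a run of letters and shows no binding.

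The genes whose counts ran most alike with a member over the 1751 thinned LEPR stromal cells were taken among 2730 genes found in 10% or more of these cells, by Pearson r of log2(UMIs + 1). For Serpine2 they were Igfbp5 (r = 0.45), Ibsp (0.38) and Gpx3 (0.29), and the lowest was Lpl (-0.17). For Serping1 they were Cst3 (0.44), Apoe (0.42) and the class I antigen gene H2-D1 (0.41), and the lowest was Lars2 (-0.27). Cells share library and depth, so these values describe 1 sample. For Serpina12 they were Tmsb4x (0.26), Cxcl14 (0.20) and H2-D1 (0.19). For Serpina3f they were Hp (0.15), the interferon-induced GTPase gene Iigp1 (0.13) and Sod2 (0.12). The haptoglobin gene Hp, an acute-phase protein gene and a marker of the class, was the first in the order for Serpinh1 (0.19), Serpina3n (0.22), Serpina3g (0.15), Serpina3c (0.14) and Serpina3f (0.15). Behind it came Cxcl12 (0.18) and Tmsb4x (0.17) for Serpinh1, Cst3 (0.16) and Tmem176a (0.16) for Serpina3n, B2m (0.13) and Ifitm3 (0.13) for Serpina3g, and Lpl (0.13) and Rap1b (0.11) for Serpina3c. For Serpinf1 they were Igfbp7 (0.13), the procollagen processing gene Pcolce (0.13) and Itm2b (0.11). Values this low in sparse counts are given for completeness.

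The targets and partners of these serpins were looked up in fixed lists. Of 18 proteases and clearance receptors, 3 reached 50 CPM in LEPR stromal cells: the cathepsin genes Ctsl (599 CPM) and Ctsb (451 CPM), and Lrp1 (407 CPM), the receptor that clears serpin-protease complexes. The plasminogen activators, which Serpine2 inhibits, were near 0 there, Plat at 0.744 CPM and Plau at 0.558 CPM, and were at 58.2 and 45.8 CPM in fibroblast-like cells. Klk7 and Klk14, whose products vaspin inhibits, and F12 had no UMI in any of the 5 classes. Of 7 complement genes, C1ra (335 CPM) and C1s1 (443 CPM), the protease targets of C1 inhibitor, were above 50 CPM in the LEPR stromal class, as was Serping1. They were at 144 and 308 CPM in fibroblast-like cells. C1qa, C1qb and C1qc were below 0.5 CPM.

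Of 5 PEDF receptor genes, Plxdc2 was at 590.5 CPM in LEPR stromal and 354 CPM in fibroblast-like cells, Lrp6 at 104 and 131 CPM and Rpsa at 1291 and 2942 CPM. Of the 20 collagen genes and collagen-folding enzymes tied to HSP47, 16 reached 50 CPM in LEPR stromal cells and 12 were highest in fibroblast-like cells, among them Col1a1 (234 against 2064 CPM), Col1a2 (1128 against 2142 CPM) and Col3a1 (183 against 2168 CPM). Serpinh1 was at 622 against 367 CPM, and 6 of the list were likewise highest in LEPR stromal cells, Col4a1 (458 against 280.2 CPM), P4hb (340.3 against 262 CPM), Fkbp10 (111 against 59.0 CPM), Crtap (169 against 84.6 CPM), Plod3 (63.8 against 29.1 CPM) and P3h1 (42.2 CPM). The others above 50 CPM in LEPR stromal cells were Ppib (529 CPM), Col6a1 (389.5 CPM), Col4a2 (237 CPM), Col6a2 (196 CPM), Col5a2 (170 CPM), Col5a1 (158 CPM), P4ha1 (93.9 CPM) and Plod2 (66.6 CPM). Hspa5, whose product binds vaspin at the cell surface, was at 1337 CPM in LEPR stromal and 613 CPM in fibroblast-like cells.

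Of the 53 other Serpin genes, 35 had no UMI and 13 were found in 1% or more of the cells of a class. The intracellular Serpinb6a was highest in fibroblast-like cells at 301 CPM, against 82.7 CPM in LEPR stromal cells. Highest in megakaryocyte-like cells were Serpinb1a at 197 CPM, Serpinb2 at 101 CPM and the Serpina3b named above, which were at 0.744, 0.0930 and 0.372 CPM in LEPR stromal cells. Serpinb1a was also at 30.0 CPM in fibroblast-like cells, with a UMI in 15 of 92. Serpinb9, an inhibitor of granzyme B, was at 35.5 CPM in endothelial-like and 21.7 CPM in LEPR stromal cells. Serpinb6b was at 28.8 CPM in endothelial-like and 11.3 CPM in erythroid-like cells. Serpinb8 reached 8.81 CPM in fibroblast-like cells, and Serpinc1, Serpini1, Serpinf2, Serpina1e and Serpina3m were at 6.33 CPM or less in each of the 5 classes.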

How the data were processed

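Each of the 2 deposited matrices holds UMI counts of genes by barcodes that the authors made with Cell Ranger on mm10 (per the labels' processing notes) and did not normalize. Their header names another version of the software than the methods do. Members, gene lists and partner lists were chosen with earlier results of these data known. The marker counts that set the other classes (6 of 16 fibroblast, 4 of 12 endothelial, 5 of 11 megakaryocyte, 5 of 7 plasma, 8 of 16 erythroid markers) were set after the markers' distribution was seen. Lanes were summed per barcode. As 1 molecule can appear in both lanes, Poisson intervals (and the limit of 3 counts where none was seen) rest on the mean of the lanes' counts. A share counts a UMI in either lane. No doublet caller was run. No p-value was computed, since there is 1 biological sample. Coding sequences were aligned with mafft 7.526. Promoters were the RefSeq table's windows. Ratio counts used genes with 50 or more UMIs over both classes. Python 3.11.15 with scipy 1.17.1 was used, and the ratio code was tested on simulated counts.

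Named genes were the members, other Serpin genes found in 1% or more of a class, partner genes at 50 CPM or more in LEPR stromal cells, the 3 most alike genes of each member, and markers. Partner genes below 50 CPM and the 7 other genes of the chromosome 12 cluster were named after their values were seen. Alternatives were other cell filters, gates, totals, thinning depths and each lane alone. Of the other Serpin genes named by this rule, 1 is not reported here.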

Additional observations from a re-analysis of the deposited data

How the results depend on the processing

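The counts of members at least 2-fold higher in LEPR stromal than in another class did not move under any of the 11 alternatives. Of 692 recomputed values, 586 kept within their margin: the counting interval, 0.5 on the log2 scale for a list ranking, or 1.5 times for a count. Of 162 list log2 ratios, 19 had the other sign, and 1 of these, Serping1 on the osteogenic list, had passed 1.5-fold. The count of pairs (1) was 3 at 1000 UMIs per cell and 0 to 2 with 1 lane alone. The adipogenic count (8) was 6 to 8 under its alternatives. The osteogenic count (2) was 0 without Ibsp and Spp1, where Serping1 turned from 0.79 to -0.15, 1 without mitochondrial transcripts, Malat1 and Gm42418 (a setting that, like the single lanes, also thins to 1000 UMIs), and 3 to 4 with 1 lane alone. The interferon count (1) was 3 as the median of 20 other thinning draws, 2 without those transcripts and 1 to 2 with 1 lane alone. The immediate-early count (1) was 0 as the median of the draws, 0 without those transcripts and 0 with 1 lane alone. The list alternatives, the other draws and the removal of barcodes with markers of another class were chosen after seeing the data. Levels in LEPR stromal cells moved most with Cxcl12 at 2500 CPM, Serpine2 to 4219 CPM. The cause of these changes was not tested. No paired analysis was possible because both replicates are lanes of 1 group. Depth limits the 6 lower genes and the 58 endothelial-like cells.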

Other observations

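Some barcodes belong to no comparison above. In the 53 plasma cell-like barcodes, at a median of 38765 UMIs, 9 cells held Serpina3g, at 16.2 CPM (9.70 to 25.5) over the class, with Serpina3f at 5.27 CPM in 5 cells and Serpine2 at 36.9 CPM in 13 cells, while Serpina12 had no UMI. In the 830 barcodes that met no class, at a median of 2632.5 UMIs, Serpine2 was at 1098 CPM (1044 to 1153) in 248 cells and Serpinh1 at 154 CPM in 96. Per 1000 Cxcl12 UMIs, these unassigned barcodes held 576 UMIs of Serpine2 and 81.0 of Serpinh1, against 216 and 28.0 in LEPR stromal cells, and 3.46 of Serpina3f and 5.10 of Serpina3c against 3.76 and 4.99.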
